A study of Homo sapiens with 4 samples.

Results

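The tumour necrosis factor (TNF) superfamily comprises cytokine ligands and their cell-surface receptors. Its members here were every gene whose symbol in the array's platform annotation is TNFSF or TNFRSF followed by a number, or is TNF, LTA, LTB, LTBR or FAS. These were 28 of 4604 annotated genes, 10 ligands and 18 receptors, on 69 probes. A log ratio on all 4 arrays was available for 19 of them (9 ligands and 10 receptors, on 38 probes), and only these 19 were tested, among 3589 genes.

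The ligands are mostly trimers that cluster their receptors, whose tails then recruit TRAF adaptors or, in the death receptors, the adaptor FADD and caspase-8. Many receptors activate the classical NF-kB route through IKKb. A smaller set, among them the BAFF receptor TNFRSF13C and the lymphotoxin beta receptor LTBR, releases the kinase NIK from TRAF3 and signals through IKKa, the alternative route that processes NFKB2. In B cells the family supports survival (BAFF and its receptors), T cell help and cell death, and several ligands, TNF and the lymphotoxins included, are themselves known NF-kB targets.

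RNA came from OCI-Ly3, an established human line of diffuse large B-cell lymphoma of the activated B-cell type, carrying an IKKa short hairpin RNA that doxycycline induces. Each of 4 two-colour arrays set doxycycline-treated cells (20 ng/ml, Cy5) against cells without doxycycline (Cy3). In the group without inhibitor, 2 arrays, doxycycline was given for 2 or 3 days and the reference cells were untreated. The group with inhibitor also has 2 arrays; MLN120b, an IKKb inhibitor (12.5 uM), was given to the cells of both channels, for 3 h after 2 days of doxycycline or for the last 24 h of 3 days. The hairpin's promoter, whether the line is 1 clone, and a doxycycline-treated line without the hairpin were not given or not analysed here, so effects of the hairpin and of doxycycline itself cannot be told apart. RNA per cell and the share of cells that express a gene cannot be told apart in such bulk samples either.

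Values are log2 ratios of doxycycline over no doxycycline. Neither the base nor this direction is stated in the deposited table; it is the likely direction, since CHUK, the gene of IKKa, then lies below 0 on all arrays (-0.59 and -0.87 without, -1.30 and -1.01 with inhibitor). Turned round, each value below would change its sign. A ratio carries no expression level, so members were compared by their change and not by abundance. A group's 2 arrays were taken at different times, so each SD includes any change with time. Log ratios of all tested genes spread, by median absolute deviation, over 0.16 (2 days) and 0.26 (3 days) in the absence of inhibitor, over 0.25 with 3 h of it and over 0.38 with 24 h. The array with 24 h of inhibitor had the widest spread by this measure. B cell markers kept a value on all 4 arrays for 78.2% of their probes, against 46.9% for T and NK cell markers, 44.4% for myeloid markers and 66.8% for all annotated probes. All 8 tested T and NK cell markers had means above 0 with inhibitor (median 0.20), where 51.6% of all genes had means below 0. Without inhibitor 1 of the 8 was below 0 (median 0.08). One of them, NKG7, was called higher with inhibitor (0.55, limma adjusted p = 0.0443), while LCK (-0.26) and ZAP70 (-0.11) were below 0 at 3 h. With inhibitor 6 of 8 tested B cell markers (median -0.12) and 2 of 4 myeloid markers (median 0.07) had means below 0. The part of these cell types in the results below was not tested.

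With inhibitor, 1 of the 19 members changed: TNFRSF13C, the BAFF receptor, fell in the induced cells, 1.77-fold, to a mean log2 ratio of -0.83 (SD 0.13 over n = 2 arrays; every ± here is such an SD). Of all tested genes, limma called 3.04% lower and 1.53% higher, so 1 lower and 0 higher members among 19 lie near the background. Each inhibitor array shares its day of doxycycline with an array of the other group, and with the day as a block 6 members passed with inhibitor: TNFRSF13C and, besides it, TNFRSF10D, TNFRSF17, TNFSF11, TNFSF4 and TNFSF8. That fit called 25.3% of all genes, and 31.6% of the members. Without inhibitor limma called 0 of 19 members, as it called 0% of all genes. At an unadjusted p under 0.05 it had 1 member without inhibitor (11.1% of all genes) and 8 with inhibitor (28.3% of all genes). The difference between the groups was called for 0 of 19 members and 0% of all genes. An unadjusted limma p under 0.05 for this difference was met by 0 members and by 173 of all genes (4.82%). The lowest adjusted p of any gene was 0.989.

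By size, 1 member, again TNFRSF13C, was lower by more than 1.5-fold on both inhibitor arrays, a rule that 2.4% of all genes met. No member was higher by that much on both (0.836% of all genes). Without inhibitor no member passed in either direction, where 0.919% of all genes were lower and 0% higher. The median size of a member's mean ratio, sign aside, was 0.18 without and 0.20 with inhibitor, where all tested genes had 0.12 and 0.19. Most of what follows describes values that did not pass a test.

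**Figure D1:**
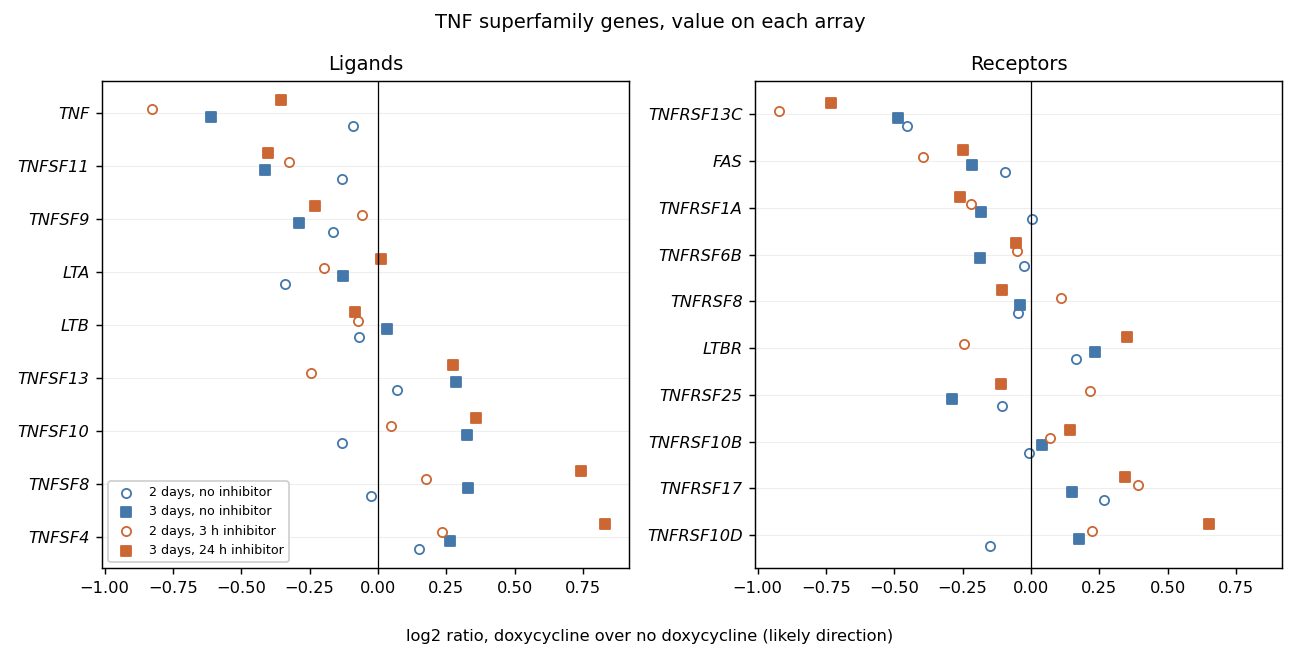
Log2 ratio (x axis) of each tested family gene on each of the 4 arrays, ligands at left and receptors at right, ordered by the mean with inhibitor; blue is without and orange with inhibitor, open circles are 2 and filled squares 3 days of doxycycline. TNFRSF13C lies below 0 on all arrays, from -0.92 to -0.45, and TNFSF4 above 0 on all, from 0.15 to 0.83.

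The medians of both classes lay near 0. The 9 ligands had a median mean ratio of -0.02 without and -0.08 with inhibitor, and the 10 receptors -0.07 and 0.03, where all tested genes had -0.03 and -0.01. They depended on the probes and arrays used: over genes with 2 or more probes the ligand median without inhibitor was -0.23 and the receptor median 0.0165, and without the 3 h array the receptor median with inhibitor was -0.08 and the ligand median 0.01. Without inhibitor 5 ligands and 6 receptors were below 0, 11 of 19 or 57.9%, against 55.9% of all genes. With inhibitor 5 ligands and 4 receptors were below 0, 47.4% against 51.6%. Members stood on both sides of these medians: 6 lay below 0 on all 4 arrays (25.8% of all genes do), namely the ligands TNF, TNFSF11 and TNFSF9 and the receptors TNFRSF13C, FAS and TNFRSF6B. Above 0 on all 4 arrays were 2, the ligand TNFSF4 and the receptor TNFRSF17 (15.5% of all genes).

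The BAFF and APRIL system holds the receptors of B cell survival. TNFRSF13C, which binds BAFF and signals through NIK and IKKa, had log2 ratios of -0.45 (2 days) and -0.49 (3 days) without inhibitor, and of -0.92 and -0.73 with 3 h and 24 h of inhibitor. Both inhibitor arrays lay below both others. The mean was -0.47 ± 0.02 without inhibitor, 1.38-fold (limma adjusted p = 0.246), and -0.83 ± 0.13 with it (standard error 0.11, adjusted p = 0.0209). The 2 means differed by -0.36 (standard error 0.16, 95% interval -0.74 to 0.02), which did not pass (adjusted p = 0.989). The gene rested on 1 probe. Its call with inhibitor ended when either array without inhibitor was left out, the ratio itself being unaffected. The mean without inhibitor, -0.47, does not use the inhibitor arrays, so leaving either of them out could not change it. That mean was then called, on a spread taken from the arrays without inhibitor alone.

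TNFRSF17, or BCMA, the receptor of plasma cells for BAFF and APRIL, lay on the other side of 0, at 0.27 and 0.15 without and 0.39 and 0.35 with inhibitor. Every array was above 0 and both inhibitor arrays lay above both others. Its mean with inhibitor was 0.37 ± 0.03, 1.29-fold, which did not pass (adjusted p = 0.0896) but did with the day as a block (0.0309). Both of its probes were above 0 on all 4 arrays, but they disagreed on the inhibitor. One had 0.30 and 0.14 without against 0.13 and 0.23 with it, and the other 0.23 and 0.16 against 0.65 and 0.46, so the higher values with inhibitor came from 1 probe.

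TNFSF13, or APRIL, had 0.07 and 0.28 without inhibitor, -0.24 at 3 h and 0.27 at 24 h, so the 2 inhibitor arrays stood on either side of 0. TNFSF13B, or BAFF itself, had no probe measured on all arrays and was not tested. Over the probes present it had 0.40 and 0.55 without inhibitor and 0.19 at 3 h, with no value at 24 h. The 2-day value averages probes at -0.04 and 0.84, and the 3 h value is that of 1 probe.

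The lymphotoxin system is another input to IKKa. LTBR, receptor of the lymphotoxin alpha-beta trimer and of the ligand LIGHT, had 0.16 (2 days) and 0.24 (3 days) without inhibitor, and -0.25 and 0.35 with 3 h and 24 h of it. The 3 h array stood apart from the other 3, and the 2 inhibitor arrays lay outside the range of the others on opposite sides. The means were 0.20 ± 0.05 without and 0.05 ± 0.42 with inhibitor (adjusted p = 0.688 and 0.848), and their difference of -0.15 had a 95% interval of -0.67 to 0.38. The 3 h value came mainly from 1 of 2 complete probes, at -0.51 where the other had 0.02. Averaging every probe with a value turned the difference to 0.02 and gave a mean with inhibitor of 0.19. That average took in 2 further probes with values at 24 h but not at 3 h, 1.06 and 0.71.

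Among the lymphotoxin ligands, LTA had -0.34 and -0.13 without inhibitor and -0.20 and 0.01 with it. LTB, the membrane-anchored partner, was near 0 on every array, with -0.07 and 0.03 without and -0.07 and -0.08 with inhibitor. That mean hid a spread among its 7 probes, 2 of which were below 0 on all 4 arrays and none above on all. At 24 h they ran from -0.82 to 0.62.

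TNF, the founding cytokine of the family, had -0.09 (2 days) and -0.61 (3 days) without inhibitor and -0.83 and -0.36 with 3 h and 24 h of it. All arrays were below 0, the groups overlapped, and the lowest value was that of the 3 h array. The means of -0.35 ± 0.37 and -0.59 ± 0.33 (1.51-fold with inhibitor) did not pass (adjusted p = 0.492 and 0.0833). The inhibitor array differed from that without inhibitor by -0.74 at 2 days and by 0.26 at 3 days. Of its 4 complete probes, 3 were below 0 on all 4 arrays and the remaining one was above 0 only on the 2-day array. With inhibitor, leaving out the 24 h array gave -0.83, and leaving out the 3 h array gave -0.36.

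TNFRSF1A, the main TNF receptor with a death domain, had 0.00 and -0.18 without and -0.22 and -0.26 with inhibitor, both inhibitor arrays lying below both others. Its mean with inhibitor was -0.24 ± 0.03 and did not pass (adjusted p = 0.22). TNFRSF1B had a value on the 2-day array alone, -0.22.

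Death receptors and their decoys spread to both sides. FAS, the receptor of Fas ligand, had -0.10 and -0.22 without and -0.40 and -0.25 with inhibitor. All arrays were below 0 and the inhibitor arrays lay below the others, with a difference of -0.30 at 2 days and -0.04 at 3 days. The mean with inhibitor of -0.32 ± 0.10 did not pass (adjusted p = 0.122), and all 3 complete probes were below 0 on all 4 arrays. TNFRSF6B, a soluble decoy that binds Fas ligand, stood between -0.19 and -0.03 on the 4 arrays.

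TNFRSF10B, a death receptor of the TRAIL ligand, was near 0, at -0.01 and 0.04 without and 0.07 and 0.14 with inhibitor. TNFRSF10D, a TRAIL receptor with a truncated death domain that acts as a decoy, had -0.15 and 0.17 without and 0.22 and 0.65 with inhibitor. The inhibitor arrays lay above the others in both genes. For TNFRSF10D the mean with inhibitor was 0.44 ± 0.30 (adjusted p = 0.114) and the difference 0.43 (95% interval -0.07 to 0.92), the largest difference in size among the members tested; it did not pass. The mean passed with the day as a block (adjusted p = 0.0216). It was 0.65 without the 3 h array and 0.22 without the 24 h array, and the difference was then 0.64 and 0.21. TNFSF10, the TRAIL ligand, had -0.13 and 0.33 without and 0.05 and 0.36 with inhibitor, so that the day separated its arrays and the inhibitor did not. TNFRSF25, a death-domain receptor of T cells, had -0.11 and -0.29 without, 0.22 at 3 h and -0.11 at 24 h, on 1 complete probe. A further probe, measured only without inhibitor, had 0.001 and 0.353, and over every probe the 3-day value was 0.03.

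Costimulatory ligands, which antigen-presenting cells use towards T cells, included the highest members by mean ratio with inhibitor; without it the highest was the receptor TNFRSF17 (0.21). TNFSF4, the OX40 ligand, had 0.15 and 0.26 without and 0.24 and 0.83 with inhibitor. It was above 0 throughout, and its high value was that of the 24 h array alone. The mean with inhibitor was 0.53 ± 0.42, 1.45-fold, and did not pass (adjusted p = 0.0865). It passed with the day as a block (0.0259), a fit that called 25.3% of all genes. The mean was 0.83 without the 3 h array and 0.24 without the 24 h array, each a single value. TNFSF8, the CD30 ligand, had -0.03 and 0.33 without and 0.18 and 0.74 with inhibitor (mean with inhibitor 0.46 ± 0.40, adjusted p = 0.132). That mean passed with the day as a block (0.0218), and was 0.74 without the 3 h array and 0.18 without the 24 h array. Its 2 probes disagreed: one was above 0 on all 4 arrays, reaching 0.98 at 3 h and 1.11 at 24 h, while the other had -0.63 and 0.37 there.

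TNFRSF8, the CD30 receptor itself, lay between -0.11 and 0.11 on its 1 complete probe. Further probes, measured only without inhibitor, had 0.07 and 0.49, and 0.05 and -0.14. TNFSF9, a ligand that stimulates T cells through TNFRSF9, was below 0 on all arrays, at -0.16 and -0.29 without and -0.06 and -0.23 with inhibitor. TNFRSF9 was not tested and had 0.16, 0.08 and, at 3 h, -0.16.

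TNFSF11, or RANK ligand, known for driving osteoclast formation, had -0.13 and -0.41 without and -0.32 and -0.40 with inhibitor. All arrays were below 0, with overlapping groups, and the mean with inhibitor of -0.36 ± 0.05 did not pass (adjusted p = 0.112) except with the day as a block (0.0363). Here too the mean joined probes that disagreed. Of 3 complete probes 2 were below 0 on all 4 arrays, reaching -0.82 and -0.62, and the third was above 0 on all 4, up to 0.20. A further probe, missing at 24 h, had 0.18, 0.54 and 0.69 on the other arrays.

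**Figure D2:**
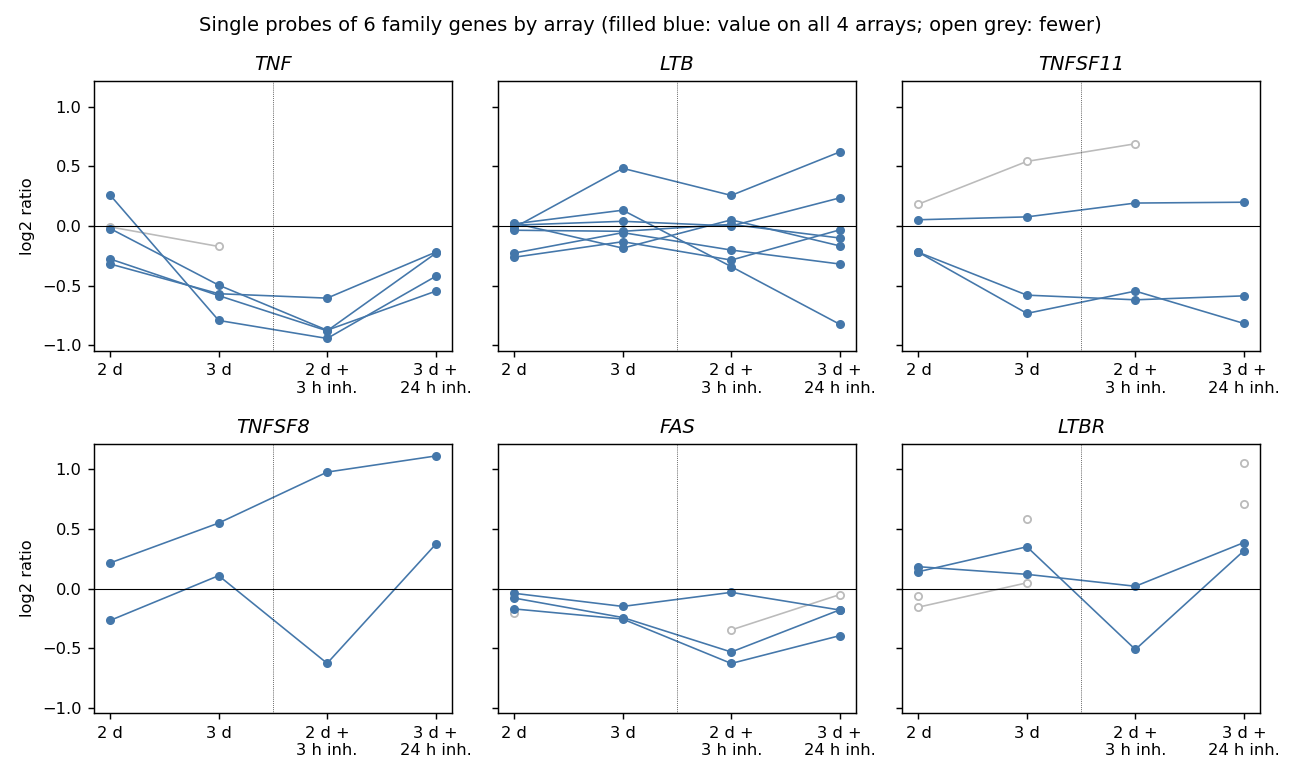
Log2 ratio (y axis) of every probe of 6 family genes on the 4 arrays (x axis, days of doxycycline and hours of inhibitor); a line joins the values of 1 probe on neighbouring arrays, filled blue where it was measured on all 4 arrays and open grey where it was not. The complete TNF and FAS probes are all below 0 on the 3-day and inhibitor arrays, whereas LTB probes at 24 h run from -0.82 to 0.62 and those of TNFSF11 and TNFSF8 separate.

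Tested as single probes, 8 of 38 member probes passed with inhibitor. The 6 lower ones, 15.8% of the member probes against 7.65% of all probes tested, belonged to TNFRSF13C, TNF, FAS, LTB and, with 2 probes, TNFSF11. The 2 higher ones, 5.26% against 4.03% of all, belonged to TNFSF8 (mean 1.04, adjusted p = 0.00327) and TNFRSF17 (0.56, adjusted p = 0.0303). Several probes of a gene are not independent, and in LTB, TNFSF11 and TNFSF8 the called probes stood beside others of the opposite sign. In TNF the called probe averaged -0.71 with inhibitor and in FAS -0.51, with the other complete probes of both genes on the same side.

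The inhibitor arrays lay below both other arrays in 4 members, 21.1% (TNFRSF13C, FAS, TNFRSF1A and LTB, whose arrays nearly touch), and in 11.2% of all genes. They lay above both in 3 members, 15.8% (TNFRSF17, TNFRSF10D and TNFRSF10B), and in 19.4% of all genes. All but LTB are receptors, which made up 10 of the 19 members tested, and in TNFRSF17 the separation came from 1 probe. Whether the classes differ in this was not tested. Members were further from 0 with inhibitor than without in 12 of 19 cases, against 68.1% of all genes, and further from 0 at 3 than at 2 days in 15 of 19 without inhibitor (67% of all genes) and 12 of 19 with it (68.2%).

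**Figure D3:**
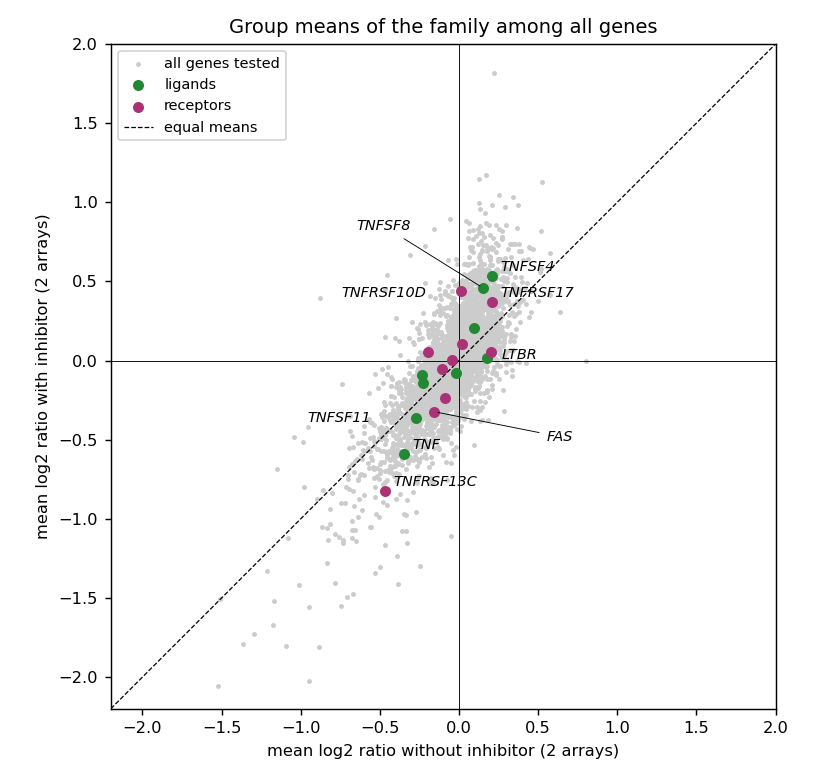
Mean log2 ratio without (x axis) and with inhibitor (y axis), each over 2 arrays, of all 3589 genes tested (grey) and of the family's ligands (green) and receptors (purple); the dashed line marks equal means. TNFRSF13C, at -0.47 and -0.83, lies at the lower edge of the family, and TNFSF4, at 0.21 and 0.53, at its upper edge.

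Receptor probes lacked values more often than ligand probes. On the 2-day array without inhibitor 96.8% of ligand and 94.7% of receptor probes had a value, like the 95.1% of all annotated probes. On the other arrays receptor probes had fewer values than ligand probes: 65.8% had a value at 3 days without inhibitor, 52.6% with 3 h and 57.9% with 24 h of it, where ligands had 90.3%, 80.6% and 74.2% and all annotated probes 84.1%, 80.8% and 78.5%. The sources used here do not say why a value is missing. This left 8 receptors and 1 ligand untested.

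Besides TNFSF13B, TNFRSF1B and TNFRSF9, these were TNFRSF10A (0.07) and the decoy TNFRSF10C (0.16), each with a value on the 2-day array alone, and TNFRSF18, a receptor of T cells, with 0.09 at 2 and 0.38 at 3 days without inhibitor. TNFRSF14, which binds LIGHT and lymphotoxin alpha, had -0.05 on the 2-day array and 1.75 on the 24 h array from 1 probe, the highest member value on any array. The RANK receptor TNFRSF11A had -0.16 at 2 days, -0.60 at 3 h and 1.30 at 24 h, again from 1 probe. The RANK ligand decoy TNFRSF11B was measured on all 4 arrays by different probes, with -0.01, 0.28, -0.02 and 0.67.

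**Figure D4:**
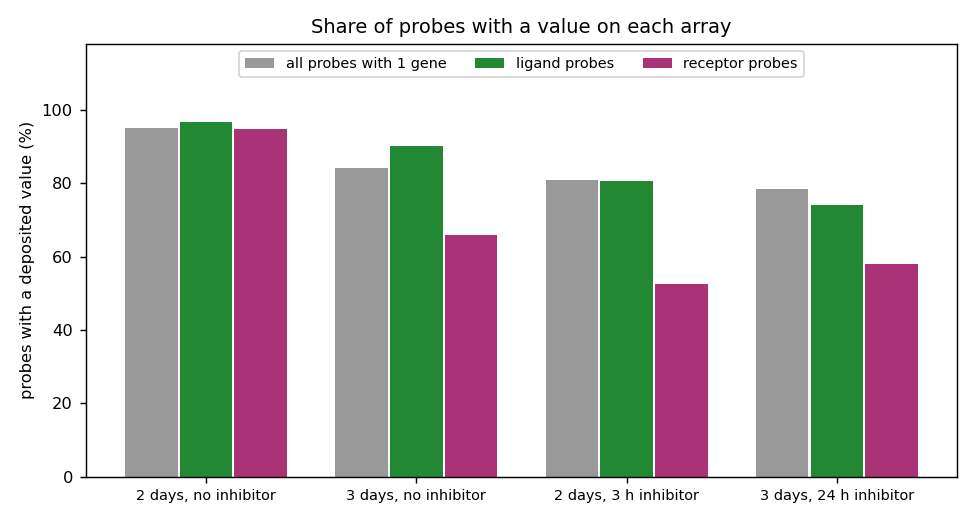
Percent of probes with a deposited value (y axis) on each array (x axis), for all annotated probes, ligand probes and receptor probes. Receptor probes drop from 94.7% on the 2-day array to between 52.6% and 65.8% on the other arrays.

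The gene neighbourhood and promoters were set beside these ratios because LTA, TNF and LTB are known NF-kB targets and adjacent genes, with no protein-coding gene between them in RefSeq. Their means with inhibitor were -0.09, -0.59 and -0.08, and only that of TNF was beyond 1.5-fold; none of the 3 passed. The kappa-B consensus, a motif of 10 bases bound by NF-kB, was searched on both strands from 250 bases before to 50 after each RefSeq start (GRCh38.p14), overlapping matches included. Of the 28 members 20 were in the promoter table, and 8 of these (40%) had a match in at least 1 window, against 13.3% of all genes in the table. Among tested members FAS, LTA, LTB, TNFSF11, TNFSF13 and TNFRSF25 had a match, while TNF and LTBR had none in this window. The 30 bases around that of TNFRSF25 did not lie wholly within the 250 bases before the start, and its position is not given here. The other 5 are shown, 30 bases each on the gene's strand with the match in capitals, to set the sequence beside the ratio.

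LTB, chr6:31582492-31582521, minus strand, 87 bases before a start: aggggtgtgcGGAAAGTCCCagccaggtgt

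LTA, chr6:31572175-31572204, plus strand, 104 bases before a start: tctaagccctGGGGGCTTCCccgggcccca

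TNFSF13, chr17:7558131-7558160, plus strand, 141 bases before a start: tcctcctgcgGGGAAATCCCttcctggctg

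FAS, chr10:88991264-88991293, plus strand, 157 bases before a start: ggtcgctggaGGGGGACCCCggttggagag

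TNFSF11, chr13:42573966-42573995, plus strand, 176 bases before a start: cctcctccttGGAGGGCCCCcatgaaggag

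In LTB and TNFSF11 the capitals match on the opposite strand only, in FAS and TNFSF13 on both, and in LTA an overlapping match begins 1 base further on. These 5 genes had means with inhibitor from -0.36 (TNFSF11) to 0.01 (TNFSF13), and none passed. The 8 tested members in the table without a match had means from -0.59 (TNF) to 0.53 (TNFSF4), and the other 6 of them lay between -0.24 (TNFRSF1A) and 0.20 (TNFSF10), so the ranges overlap. The tested members TNFRSF13C, TNFRSF17, TNFRSF10B, TNFRSF10D and TNFSF8 had no promoter entry and were not searched. A match is a description of the letters and not evidence of binding.

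Receptor-proximal adaptors and regulators carry the signal from these receptors. Of 24 listed, 15 were tested, and with inhibitor 3 fell and none rose, with a median of -0.16 and 9 of 15 below 0 (60%, where all genes had 51.6% below 0 and 3.04% called lower). Those that fell were TAB2, an adaptor of the TAK1 kinase, at -1.13 (limma adjusted p = 0.00977), TNFAIP3, the feedback inhibitor A20, at -0.88 (0.0304), and CYLD, a deubiquitinase, at -0.67 (0.0257). Without inhibitor these genes had -0.73, -0.33 and -0.19 and were not called, and no difference between the groups passed (limma adjusted p = 0.989 for each). TAB2 and CYLD each rested on 1 complete probe. CFLAR, which blocks caspase-8 at death receptors, had -0.60 (0.0532) and caspase-8 itself, CASP8, 0.48 (0.0564), neither of which passed. TRAF3, the adaptor that the BAFF receptor binds, had a mean of -0.16 with inhibitor, from -0.05 at 3 h and -0.28 at 24 h.

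Along the alternative NF-kB route 6 of 8 listed genes were tested, and with inhibitor 1, CHUK, fell (-1.15, adjusted p = 0.0130). All 6 had means below 0 with inhibitor, where 51.6% of all genes did, and 5 without it. The place of CHUK in these counts was fixed by the choice of direction. At 3 h and 24 h NFKB2 (0.09 and -0.14), RELB (-0.25 and 0.14) and BIRC2 (0.05 and -0.20) stood on both sides of 0. CHUK, TRAF3 and MAP3K14 were below 0 on both inhibitor arrays. Their median was -0.19 without and -0.07 with inhibitor. With inhibitor the kinase NIK, MAP3K14, had -0.03, NFKB2 -0.03, RELB -0.05 and BIRC2 -0.08, and without it BIRC2 had -0.26. CHUK is the hairpin's target and its sign was used above to choose the likely direction, so its fall is no separate result.

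Family members with other symbols were 3 of 10 tested, and none passed in any comparison. CD40, the B cell receptor of T cell help, had -0.04, -0.21, -0.09 and -0.14 in the array order above, NGFR a mean of -0.12 and CD27, a receptor of memory B cells, 0.22 with inhibitor. CD70, the ligand of CD27, was not tested and had -0.33 and 0.20 without inhibitor and -0.36 at 3 h.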

How the data were processed

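The deposited table holds 1 log ratio per probe and array, read as log2, with array medians from -0.007 to 0; whether the authors centred it is not stated. Background correction, normalization, filtering and genome build: not given in the sources used here; scanner files were not analysed here. With signal over background unknown, precision is limited by having 4 arrays. Of 15246 probes 10169 had 1 gene symbol, 4 several and 5073 none.

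A gene's value is the mean over its probes with a value on all 4 arrays. One limma 3.58.1 model (lmFit, eBayes, R 4.3.3) gave each group a mean, over all 3589 genes. Means were tested against 0 and against each other, two-sided, with Benjamini-Hochberg adjustment over all genes and a call below 0.05. The fit had 2 residual and 4.98 prior degrees of freedom. It was tested on simulated data with a shift larger than the mean of any member tested, which says nothing of its power for changes as small as those here. The labels do not say that arrays came from separate cultures, so the p-values describe no more than how these arrays spread, which may be technical.

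Members and lists were chosen with earlier results of these data known. Array values are given for TNFRSF13C, LTBR, called members, members beyond 1.5-fold or on 1 side of 0 throughout, and fixed ligand-receptor sets. From other lists up to 4 genes are named, called ones first, then by size, with CHUK always; further names were chosen after their values were seen. Alternatives were centring, equal spread, other probe and array requirements, single probes, doxycycline day as a block, leaving out each array, a robust prior and other thresholds. A gene with no promoter entry is only named.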

Additional observations from a re-analysis of the deposited data

How the results depend on the processing

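All alternatives below were planned. With inhibitor 1 member, TNFRSF13C, was called. The count was 2 (4.22% of all genes) when 1 measured array in each group sufficed, TNFRSF14 being added on its single 24 h value. At an adjusted p under 0.10 it was 4 (16.4% of all genes), and by single probes 7 genes (11.7% of all probes tested). It was 6 when the day entered the fit as a block (TNFRSF13C, TNFRSF10D, TNFRSF17, TNFSF11, TNFSF4 and TNFSF8), a fit that called 25.3% of all genes. With 1 array left out, its group rests on 1 array, which is assumed to vary like the others, so means are given here. Without the 3 h array the means with inhibitor were -0.73 for TNFRSF13C, 0.65 for TNFRSF10D, 0.83 for TNFSF4, 0.74 for TNFSF8 and -0.36 for TNF. Without the 24 h array they were -0.92, 0.22, 0.24, 0.18 and -0.83. With inhibitor TNFRSF13C was not called when either array without inhibitor was left out. Without inhibitor it was called when either inhibitor array was left out, its mean of -0.47 being unaffected. Each such fit took the spread from the group that kept both arrays. Over genes with 2 or more probes, where 11.6% of all genes were called, the 1 called member was TNF, TNFRSF13C not being tested there. Without inhibitor the mean of TNFRSF13C was -0.49 without the 2-day array and -0.45 without the 3-day array. The difference between groups was called for 0 members throughout. Beyond 1.5-fold on both inhibitor arrays, the 1 member became 0 with spread equalised between arrays and 0 at 2-fold.

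Genes with 2 or more probes gave ligand medians of -0.23 without and -0.14 with inhibitor, and receptor medians of 0.0165 and 0.11. The receptor median without inhibitor was 0.0118 with every probe and 0.000625 with 1 measured array per group. With 1 array left out, the ligand median ran from -0.09 to 0.03 without and from -0.078 to 0.01 with inhibitor, and the receptor median from -0.11 to -0.038 and from -0.08 to 0.027.

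Sign changes touched means and differences that were not called in the fit reported above. Equal spread turned LTBR with inhibitor (-0.0101), TNFSF13 with inhibitor (-0.0353), TNFRSF10D without (-0.0342) and the TNFSF11 difference (0.0019), and centring turned LTB without inhibitor (0.0154). Using every probe, or 1 measured array per group, gave 0.0628 for TNFRSF8 without inhibitor, -0.0613 for its difference and 0.0203 for the LTBR difference. With 1 array left out, these spanned 0 without inhibitor: LTB -0.07 to 0.0336, TNFRSF10B -0.0085 to 0.0415, TNFRSF10D -0.15 to 0.17, TNFRSF1A -0.18 to 0.002, TNFSF10 -0.13 to 0.33 and TNFSF8 -0.025 to 0.33. With 1 array left out, these spanned 0 with inhibitor: LTA -0.20 to 0.01, LTBR -0.24 to 0.35, TNFRSF25 -0.11 to 0.21, TNFRSF8 -0.10 to 0.11 and TNFSF13 -0.24 to 0.27. With 1 array left out, these spanned 0 for the difference: LTBR -0.44 to 0.15, TNF -0.50 to 0.0199, TNFRSF6B -0.0265 to 0.13, TNFRSF8 -0.061 to 0.15, TNFSF10 -0.12 to 0.34, TNFSF11 -0.23 to 0.0495, TNFSF13 -0.42 to 0.10 and TNFSF9 -0.0047 to 0.17. The cause of these changes was not tested. The labels carry no replicate numbers, but the day pairs the arrays across groups. For the difference, the fit with the day as a block is that paired analysis, and it called 0 members. Its tests of a group mean against 0 are not paired comparisons, and without inhibitor they called 0 members. With inhibitor the day coincides with the hours of inhibitor, and the block cannot separate them.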
